A study of Mus musculus with 6 samples.

Results

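Reticulons are membrane proteins of the endoplasmic reticulum (ER), and the mouse genes Rtn1, Rtn2, Rtn3 and Rtn4 encode the family. All probe sets that the platform annotation gives to these 4 genes were taken, each on its own, which gave 9 of the 45101 probe sets on the array (1 for Rtn1, 1 for Rtn2, 2 for Rtn3 and 5 for Rtn4). RNA came from the catecholaminergic mouse neuroblastoma line CAD, grown in DMEM with serum, in 2 groups of 3 biological replicates. The first group received RIPmiR-124a-2, a plasmid that expresses miR-124a-2, from which the neuronal microRNA miR-124 is made (miR-124a-2 plasmid), and the second received the empty RI vector (empty vector). All arrays come from this single line, the share of cells that took up a plasmid is not given in the sources used here, and the array does not report the level of mature miR-124. The family was chosen by the log2 differences between these same arrays, with results of the comparison known. The differences of its probe sets are therefore given as descriptions, without p-values. Intervals and calls of reticulon probe sets are descriptions too and not tests of the family.

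Each reticulon ends in a conserved C-terminal domain whose hydrophobic hairpins wedge into the outer leaflet of the ER membrane and bend it into tubules. The genes differ in their N-terminal parts, and several are read from more than one promoter, which yields long and short proteins with the same C-terminal domain. Rtn1 is known as a marker of neuronal and neuroendocrine differentiation. Mutations in human RTN2 cause a hereditary spastic paraplegia, a disease of long axons. Rtn3 binds the amyloid-processing protease BACE1 and also serves as a receptor for the degradation of ER tubules. Rtn4 encodes Nogo-A, Nogo-B and Nogo-C, of which Nogo-A is the myelin-associated inhibitor of axon growth.

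In the RefSeq annotation of GRCm38.p6, Rtn1 spans chr12:72211749-72409054, Rtn2 chr7:19282624-19296164, Rtn3 chr19:7425895-7483291 and Rtn4 chr11:29692898-29744414. The RefSeq promoter table holds 8 windows for the family, each from 250 bases before to 50 bases after an annotated start: 3 for Rtn1, 1 for Rtn2, 1 for Rtn3 and 3 for Rtn4. The probe sets of Rtn4 did not share one change (below), and the files do not say which transcript each of them reads, so the windows of all 3 annotated Rtn4 starts are shown, on the plus strand. Capitals mark GC boxes (GGGCGG) and CCAAT boxes (CCAAT) on either strand.
Rtn4, first start, chr11:29692648-29692947: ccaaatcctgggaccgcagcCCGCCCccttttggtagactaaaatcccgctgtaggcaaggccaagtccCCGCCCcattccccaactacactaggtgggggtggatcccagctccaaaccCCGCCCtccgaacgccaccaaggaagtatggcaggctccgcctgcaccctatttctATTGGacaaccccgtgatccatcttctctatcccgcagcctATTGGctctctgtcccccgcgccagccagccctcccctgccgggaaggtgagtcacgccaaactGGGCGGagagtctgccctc
Rtn4, middle start, chr11:29693524-29693823: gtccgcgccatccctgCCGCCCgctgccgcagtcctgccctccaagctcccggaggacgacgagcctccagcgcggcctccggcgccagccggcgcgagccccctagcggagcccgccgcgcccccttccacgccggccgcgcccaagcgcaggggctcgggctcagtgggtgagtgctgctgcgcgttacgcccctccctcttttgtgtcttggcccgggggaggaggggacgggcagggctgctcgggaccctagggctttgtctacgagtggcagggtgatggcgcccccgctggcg
Rtn4, last start, chr11:29718313-29718612: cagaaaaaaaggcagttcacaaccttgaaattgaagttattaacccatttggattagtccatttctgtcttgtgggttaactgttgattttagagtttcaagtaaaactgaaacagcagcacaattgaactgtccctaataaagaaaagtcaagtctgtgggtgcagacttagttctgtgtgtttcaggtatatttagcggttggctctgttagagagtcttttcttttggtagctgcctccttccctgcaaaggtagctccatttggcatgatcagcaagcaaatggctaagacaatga
The middle start lies 876 bases and the last start 25665 bases downstream of the first. The first window held 4 GC boxes and 2 CCAAT boxes at 62.3% GC with 15 CpG dinucleotides. The middle window held 1 GC box and no CCAAT box at 75.3% GC with 35 CpG, and the last held neither motif at 39.7% GC with 1 CpG. Over 32851 windows of the same length, the median was 52.7% GC and 7 CpG, 35.7% held a GC box and 37.4% a CCAAT box.

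Rtn1 and Rtn2 differed between the groups by similar amounts (below), and their CpG-rich windows are shown beside each other with the same marks. A link between these windows and the differences was not tested. The Rtn1 sequence is given on the minus strand and the Rtn2 sequence on the plus strand, each in the direction of its gene.
Rtn1, CpG-rich start, chr12:72236678-72236977: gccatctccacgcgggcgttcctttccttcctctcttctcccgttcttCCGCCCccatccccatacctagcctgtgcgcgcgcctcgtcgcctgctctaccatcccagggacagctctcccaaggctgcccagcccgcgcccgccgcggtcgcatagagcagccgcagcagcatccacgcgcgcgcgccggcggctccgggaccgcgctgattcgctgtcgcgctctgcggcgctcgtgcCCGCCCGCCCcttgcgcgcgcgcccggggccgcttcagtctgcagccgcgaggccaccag
Rtn2, chr7:19282374-19282673: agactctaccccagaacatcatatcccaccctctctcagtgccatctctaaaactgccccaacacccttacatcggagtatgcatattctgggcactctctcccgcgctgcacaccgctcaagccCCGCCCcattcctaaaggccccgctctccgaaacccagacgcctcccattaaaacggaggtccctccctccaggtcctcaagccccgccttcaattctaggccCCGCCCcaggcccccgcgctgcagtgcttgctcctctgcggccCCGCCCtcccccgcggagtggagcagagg
Each of these windows held 3 GC boxes and no CCAAT box, at 73.3% GC with 43 CpG for Rtn1 and 63.0% GC with 17 CpG for Rtn2. Overlapping matches were counted apart: the Rtn1 boxes at positions -10 and -6 from the start share a single marked stretch. The Rtn1 window also held GGACAGC, a part of the sequence that the repressor REST binds, at position -142 from the start, as did 6.56% of all windows. No reticulon window held TATAAA, the cAMP response element TGACGTCA or TTCAGCACC, the other part of the REST sequence, on either strand, against 13.6%, 1.79% and 0.371% of all windows. A match of letters is not evidence of binding. The other Rtn1 windows were unlike the one shown. They had 45.3% GC and 8 CpG with 1 GC box and 1 CCAAT box, and 46.3% GC and 3 CpG with neither. The Rtn3 window had 67.0% GC with 27 CpG and 1 GC box. A CpG-rich window was thus not particular to Rtn1 and Rtn2 within the family.

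The values are log2 signals. Median signals were 4.72 to 4.81 in the miR-124a-2 plasmid arrays and 4.75 to 4.83 in the empty vector arrays, and the Trp control probe sets, for a transcript outside the usual poly-A kit, averaged 3.37 to 3.50. Arrays give no read depth, and their number limits the precision of every value. In 3 arrays the interquartile range was narrow (3.09 and 3.10 in plasmid replicates 1 and 2, and 3.06 in vector replicate 1), against 3.35 in plasmid replicate 3 and 3.26 and 3.30 in vector replicates 2 and 3 (wide arrays). Poly-A control probe sets averaged 5.88 and 5.93 in the replicate 1 arrays of the plasmid and vector groups and 5.51 to 5.59 in the other arrays. Differences among narrow arrays (2 plasmid, 1 vector) and among wide arrays (1 plasmid, 2 vector) are given too. Of 14 measured catecholaminergic and neuronal markers, 13 lay above the median of every array, among them Th and Dbh, and Slc18a2 did not. Of 18 markers of glia, macrophages, fibroblasts and endothelium, 4 did (Slc1a3, Mag, Csf1r and Dcn), with group means of all 18 between 3.34 and 6.21. Group means of the 14 lay between 3.86 and 12.19, so the ranges overlapped. Slc18a1 passed the median narrowly, with 4.8113 against a median of 4.8112 in plasmid replicate 2. Ddc had group means of 5.75 and 5.23 with plasmid and vector. No marker of any class passed the threshold defined below.

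With the miR-124a-2 plasmid, 8 of the 9 reticulon probe sets had a higher mean, and in 3 every plasmid array lay above every vector array: 1 of Rtn4, the single probe set of Rtn1 and the single probe set of Rtn2. The remaining 6, which include both of Rtn3 and 4 of Rtn4, overlapped. Over all probe sets, 22853 of 45101 had a higher mean and 6.27% were higher without overlap. By limma (adjusted p under 0.05 over all probe sets), 121 probe sets of the array (0.268%) were called, 27 of them (0.0599%) higher, and 1 reticulon probe set was among these 27, Rtn4 1437224_at. The comparison chose the family, so nothing is read from these shares. The median log2 fold change was 0.13 over the 9 reticulon probe sets and 0.0023 over all probe sets. In bulk RNA, more RNA per cell and more cells that carry it cannot be told apart.

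**Figure D1:**
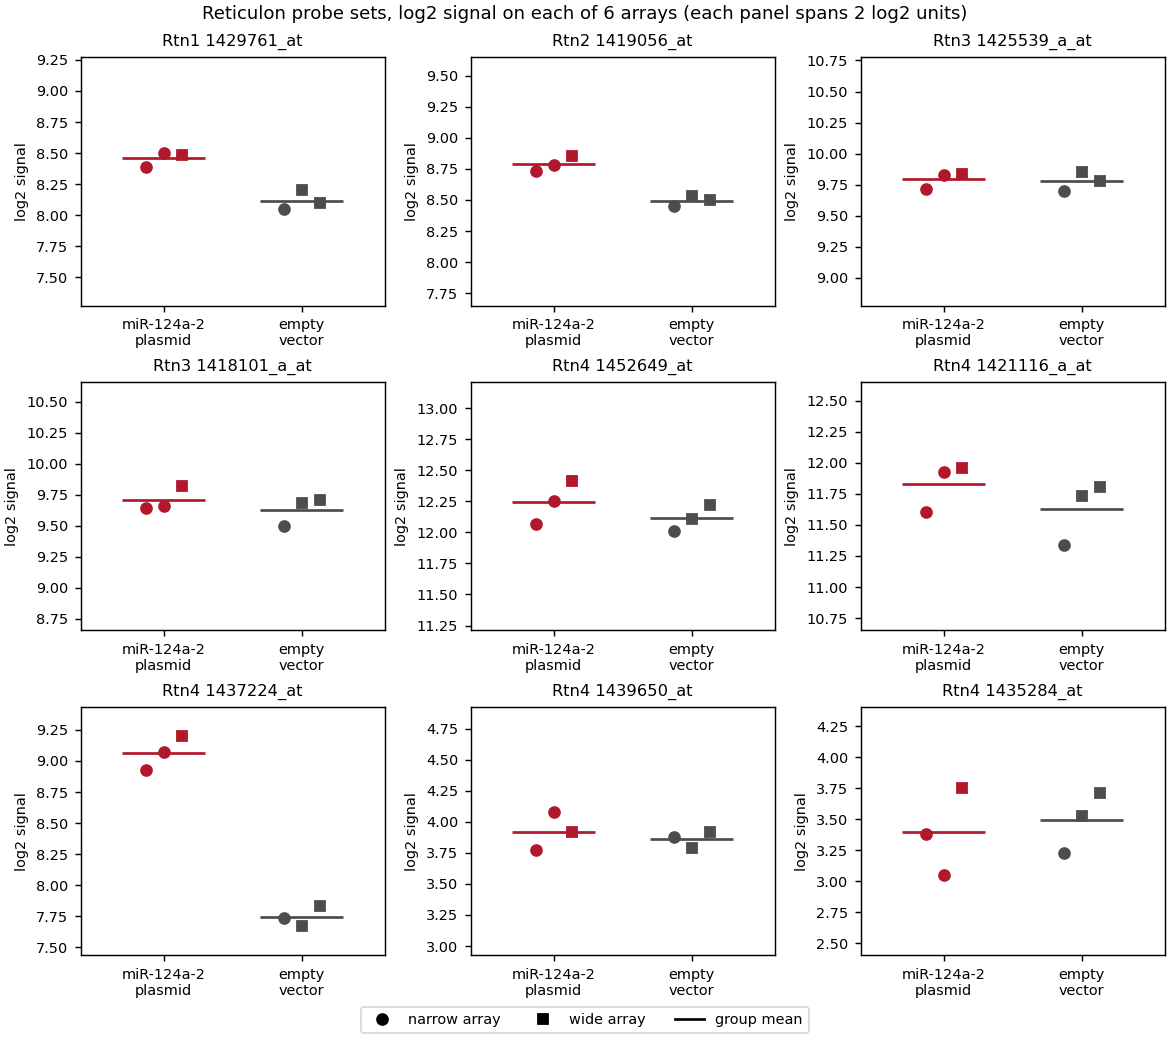
Log2 signal of each reticulon probe set (vertical axis, 2 log2 units in each panel) on 3 miR-124a-2 plasmid arrays (red, left) and 3 empty vector arrays (grey, right). Circles are narrow and squares wide arrays, and lines are group means. The groups stand apart in the panels of Rtn1, Rtn2 and Rtn4 1437224_at, the last with plasmid means 1.32 above vector means.

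Rtn4 1437224_at, annotated to the GenBank sequence BE988775, had log2 signals of 8.93, 9.07 and 9.20 in the miR-124a-2 plasmid arrays, against 7.74, 7.67 and 7.83 in the empty vector arrays. Every plasmid array lay above every vector array, and the gap between the groups was several times the range within either. The means were 9.07 ± 0.14 with the plasmid and 7.75 ± 0.08 with the vector (SD, n = 3 each), a log2 fold change of 1.32 (SE 0.11), or 2.50-fold higher. Among all 45101 probe sets this difference ranked 5 from the top. It was 1.26 on narrow arrays and 1.45 on wide arrays, and 1.19, 1.40 and 1.37 between the plasmid and vector arrays of replicates 1, 2 and 3. With any single array left out the log2 fold change stayed between 1.25 and 1.39. Its call did not: it was lost without vector replicate 1, 2 or 3 or plasmid replicate 1 or 2, and kept without plasmid replicate 3. In 4 of those fits no probe set of the whole array passed, and in the fit without plasmid replicate 2 there were 12.

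The other probe sets of Rtn4 did not show a difference of this size. The brightest, 1452649_at, had 12.07, 12.25 and 12.41 with the miR-124a-2 plasmid, against 12.01, 12.11 and 12.22 with the empty vector, and the groups overlapped. Its log2 fold change was 0.13 (SE 0.12, 95% interval -0.14 to 0.40). Between the plasmid and vector arrays of replicates 1, 2 and 3 the difference was 0.06, 0.14 and 0.19. The value was 0.08 without vector replicate 1, 0.22 without plasmid replicate 1 and 0.05 without plasmid replicate 3.

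Rtn4 1421116_a_at, annotated to the RefSeq transcript NM_024226, had 11.60, 11.92 and 11.96 with the miR-124a-2 plasmid, against 11.34, 11.73 and 11.81 with the empty vector. The replicate 1 array was the lowest of its group in both groups, as were the replicate 1 arrays of 1452649_at, and these are the arrays with the higher poly-A controls. The log2 fold change was 0.20 (SE 0.16, 95% interval -0.16 to 0.56), and a block for the poly-A batch brought its SE to 0.08. It was 0.06 without vector replicate 1 and 0.32 without plasmid replicate 1. The difference was 0.42 on narrow arrays, whose only vector array is replicate 1, and 0.19 on wide arrays. Between the plasmid and vector arrays of replicates 1, 2 and 3 it was 0.26, 0.19 and 0.15. The parts of the array set and of the poly-A batch in the gap between narrow and wide arrays were not tested.

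The last 2 Rtn4 probe sets lay below the median of every array. Signals of 1439650_at were 3.77, 4.08 and 3.91 with the plasmid, against 3.88, 3.79 and 3.92 with the vector, and its log2 fold change was 0.06 (SE 0.11). Signals of 1435284_at were 3.38, 3.05 and 3.75 with the plasmid, against 3.23, 3.53 and 3.71 with the vector, and its log2 fold change was -0.09 (SE 0.19). Both overlapped between groups, and the sign of each depended on which arrays were used. With single arrays left out, 1439650_at ran from -0.02 (without plasmid replicate 2) to 0.13 (without plasmid replicate 1), and 1435284_at from -0.27 (without plasmid replicate 3) to 0.08 (without plasmid replicate 2).

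Within each array, the log2 signal of Rtn4 1437224_at can be set against that of another Rtn4 probe set, which removes anything the array adds to both. Its difference to 1452649_at was -3.14, -3.18 and -3.21 in the miR-124a-2 plasmid arrays, against -4.27, -4.44 and -4.39 in the empty vector arrays. The difference to 1421116_a_at was -2.67, -2.85 and -2.76 in the plasmid arrays, against -3.60, -4.06 and -3.98 in the vector arrays. Relative to these 2 probe sets, 1437224_at was thus 1.19 and 1.12 higher on the log2 scale with the plasmid, with no overlap between groups. Relative to the dim 1439650_at and 1435284_at it was 1.26 and 1.42 higher. As 1437224_at was picked for the largest change in Rtn4, the direction of these ratios was set by that choice. The ratios describe unequal change between probe sets annotated to one gene and not the level of any transcript. RefSeq lists 5 curated Rtn4 transcripts, and the transcripts that each probe set reads were not analysed here.

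Rtn1, the reticulon of neuronal and neuroendocrine cells, was read by 1 probe set, 1429761_at. Its log2 signals were 8.39, 8.50 and 8.49 in the miR-124a-2 plasmid arrays, against 8.05, 8.20 and 8.10 in the empty vector arrays. The plasmid values all lay above the vector values. The log2 fold change was 0.34 (SE 0.09, 95% interval 0.13 to 0.56), or 1.27-fold higher, with 0.40 on narrow arrays and 0.34 on wide arrays. Between arrays of the same replicate number it was 0.34, 0.30 and 0.39.

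Rtn2, read by 1419056_at, is the member tied to human spastic paraplegia. Its log2 signals were 8.73, 8.78 and 8.85 in the miR-124a-2 plasmid arrays, against 8.45, 8.53 and 8.50 in the empty vector arrays, again without overlap. The log2 fold change was 0.29 (SE 0.09, 95% interval 0.09 to 0.50), or 1.23-fold higher, with 0.31 on narrow arrays and 0.33 on wide arrays. In the fit over all probe sets neither Rtn1 nor Rtn2 was called, and 1083 and 1685 were their ranks among 45101 log2 fold changes counted from the highest.

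The plot of log2 fold changes shows these 2 genes between the probe set 1437224_at and the rest of the family. For Rtn1 the log2 fold change ran from 0.31 to 0.40 over 17 other settings, and for Rtn2 from 0.26 to 0.33. Some of these settings, such as a block for the replicate number, cannot change a log2 fold change.

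**Figure D2:**
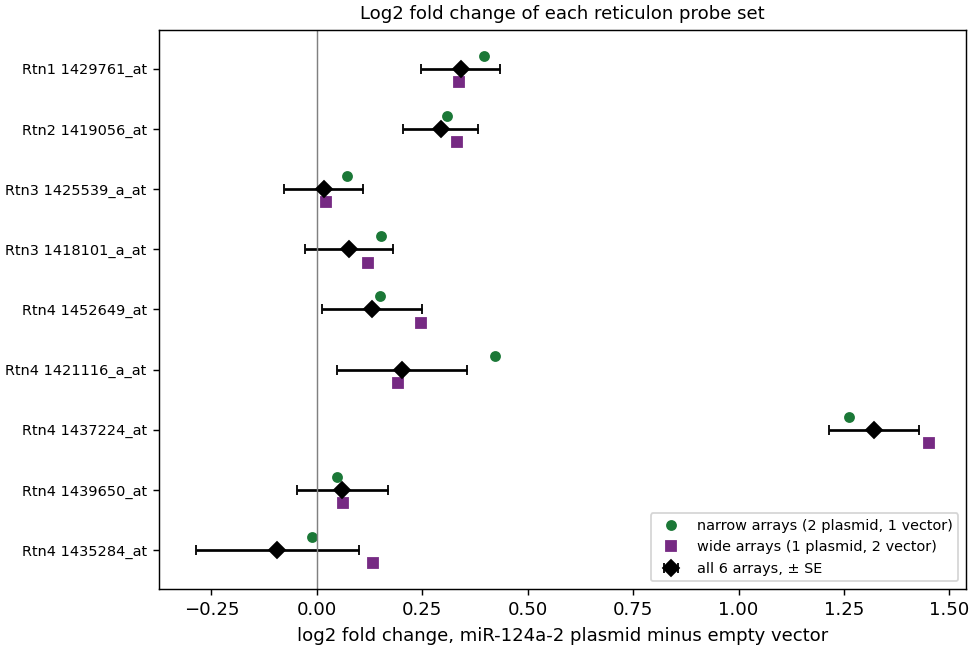
Log2 fold change (miR-124a-2 plasmid minus empty vector, horizontal axis) of the 9 reticulon probe sets. Black diamonds with bars are the estimate over 6 arrays ± SE, green circles the difference within narrow arrays and purple squares that within wide arrays. Rtn4 1437224_at lies at 1.32, Rtn1 and Rtn2 at 0.34 and 0.29, and the other 6 between -0.09 and 0.20.

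Rtn3, the reticulon that binds BACE1, was read by a pair of probe sets, and neither separated the groups. Rtn3 1425539_a_at had 9.72, 9.83 and 9.84 with the miR-124a-2 plasmid, against 9.70, 9.85 and 9.78 with the empty vector. Its log2 fold change was 0.016 (SE 0.09, 95% interval -0.20 to 0.23). Rtn3 1418101_a_at had 9.64, 9.66 and 9.82 with the plasmid, against 9.50, 9.68 and 9.71 with the vector. Its log2 fold change was 0.08 (SE 0.10, 95% interval -0.16 to 0.32). For 1425539_a_at the value was -0.02 without vector replicate 1 and -0.0067 without plasmid replicate 3. For 1418101_a_at it was 0.0094 without vector replicate 1, 0.12 without vector replicate 3 and 0.02 without plasmid replicate 3.

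**Figure D3:**
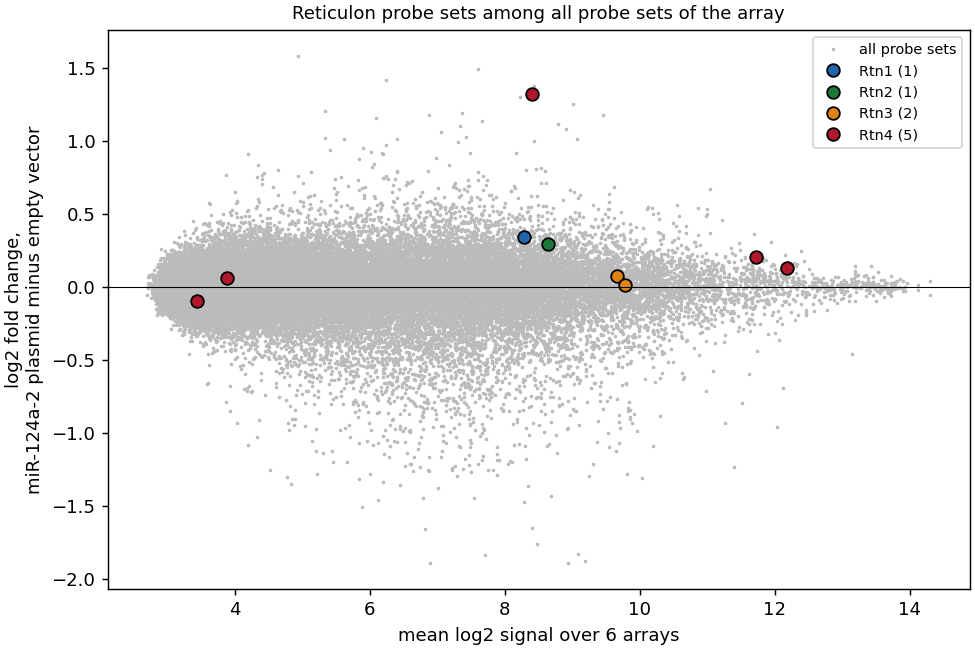
Mean log2 signal over 6 arrays (horizontal axis) against log2 fold change (miR-124a-2 plasmid minus empty vector, vertical axis) for all 45101 probe sets in grey, with reticulon probe sets coloured by gene. Rtn4 1437224_at lies at the upper edge at 1.32, while the 2 brightest Rtn4 probe sets lie at 0.20 and 0.13 and the 2 dimmest at 0.06 and -0.09.

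The genes whose signal followed a reticulon most closely over the 6 arrays were looked up by Pearson correlation among 20196 probe sets at or above the median signal. All probe sets share the same 6 arrays and the same group difference, so these are descriptions and no more. Nearest to Rtn4 1437224_at were Rgs4 (r = 0.998), Klc1 (r = 0.995) and Pik3r3 (r = 0.995), with log2 fold changes of 1.14, 1.00 and 0.62. Nearest to Rtn4 1452649_at were Slc35a5, Marcks and Dync1li2 (r of 0.997, 0.996 and 0.996), with log2 fold changes of 0.25, 0.17 and 0.14. The lists of the 2 Rtn4 probe sets share no gene. Each holds only 3 genes from 20196 probe sets, so nothing is read from this. Rtn1 was followed by Gnaz, Tm2d2 and Chchd1 (r of 0.998, 0.995 and 0.995), Rtn2 by Akr1a1, Cnrip1 and Pisd-ps3 (r of 0.999, 0.998 and 0.997), and Rtn3 1425539_a_at by Aga, Glrx2 and Cox5a (r of 0.995, 0.994 and 0.989).

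Genes that work with reticulons were taken from 4 lists (ER shaping, ER-phagy, Nogo receptor signalling, and enzymes and partners bound by reticulons), of which 60 of 67 genes were measured by 156 probe sets. None passed limma's adjusted threshold in either direction. At an unadjusted p under 0.05 there were 29 probe sets of 17 genes (18.6% of the 156), 11 higher and 18 lower, against 8.18% of all probe sets. The median log2 fold change of the 156 was 0.0048, with 79 above and 77 below 0.

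Among 16 measured ER-shaping genes, 0 of 47 probe sets were called higher and 0 lower (3 higher and 9 lower at an unadjusted p under 0.05), and the median log2 fold change was -0.07. Atl3, an atlastin GTPase that fuses ER tubules into a network, had the largest value. Its probe set 1435890_at had 4.67, 4.94 and 5.78 in the miR-124a-2 plasmid arrays, against 6.22, 6.88 and 6.82 in the empty vector arrays, with no overlap and a log2 fold change of -1.51 (SE 0.29, limma adjusted p = 0.1065). The difference was -1.42 on narrow arrays and -1.07 on wide arrays, and the other 4 Atl3 probe sets had -0.42 to -0.20. This probe set was called once the array set or the poly-A batch entered the fit as a block. Reep3, which keeps ER membranes off the chromosomes in mitosis, came next. Its probe set 1424780_a_at had 6.77, 7.01 and 7.70 with the plasmid, against 7.82, 8.33 and 8.32 with the vector, a log2 fold change of -1.00 (SE 0.24, limma adjusted p = 0.202), with -0.93 on narrow arrays and -0.63 on wide arrays. It was called with a block for the array set and not with one for the poly-A batch. All 6 Reep3 probe sets lay below 0. In 1435890_at and 1424780_a_at plasmid replicate 3, the wide array of its group, was the highest of the 3 plasmid arrays.

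Nogo receptor signalling carries the signal of Nogo-A from the neuronal surface to the actin cytoskeleton through RhoA and its kinases, and 15 of its 17 listed genes were measured by 35 probe sets. None was called (2 higher and 6 lower at an unadjusted p under 0.05), and the median log2 fold change was 0.02. Rtn4r, the Nogo receptor itself, had 7.34, 7.45 and 7.37 with the miR-124a-2 plasmid, against 7.48, 7.37 and 7.32 with the empty vector, a log2 fold change of -0.0027 (SE 0.09, limma adjusted p = 0.999). Rock1, a RhoA-dependent kinase, had the largest value of the list. Its probe set 1423445_at had 6.98, 6.90 and 7.70 with the plasmid, against 7.81, 8.19 and 8.40 with the vector, a log2 fold change of -0.94 (SE 0.23, limma adjusted p = 0.208), and -0.87 on narrow arrays and -0.59 on wide arrays. A block for the array set led to its call, and one for the poly-A batch did not. The other Rock1 probe sets had -0.73, -0.69, -0.68 and -0.02. Ngfr, the p75 co-receptor, followed with -0.46 in 1450177_at (SE 0.30, limma adjusted p = 0.817), and that value was 0.11 on narrow arrays and -0.58 on wide arrays. The other Ngfr probe sets had -0.44 in 1421241_at and -0.32 in 1454903_at. The second did not overlap between groups and had -0.13 on narrow arrays and -0.40 on wide arrays. The only narrow vector array is replicate 1, with the higher poly-A controls. Plasmid minus vector differences of replicates 1, 2 and 3 were -0.24, -0.64 and -0.49 in 1450177_at. They were -0.46, -0.50 and -0.37 in 1421241_at and -0.12, -0.44 and -0.41 in 1454903_at. With a block for the poly-A batch the SE was 0.10 in 1450177_at and 0.08 in 1421241_at, and neither was called.

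The ER-phagy list, 13 genes for receptors of ER degradation and for the autophagy proteins they bind, had 28 probe sets. None was called (4 higher and 0 lower at an unadjusted p under 0.05), and the median log2 fold change was 0.10. Map1lc3b, which encodes the autophagosome protein LC3B, had 9.07, 9.27 and 9.29 in probe set 1415928_a_at with the miR-124a-2 plasmid, against 8.72, 8.78 and 8.69 with the empty vector. The groups did not overlap, and the log2 fold change was 0.48 (SE 0.10, limma adjusted p = 0.128), with 0.41, 0.31 and 0.05 in its other probe sets. Ccpg1, an ER-phagy receptor, had 0.23 and -0.03 in its probe sets.

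Enzymes and partners bound by reticulons were 16 measured genes with 46 probe sets. None was called (2 higher and 3 lower at an unadjusted p under 0.05), and the median log2 fold change was 0.03. Bace2, a protease related to BACE1, had 0.54 in 1435581_at (SE 0.14, limma adjusted p = 0.2345) and -0.23, -0.21, -0.13 and 0.28 in its other probe sets. With a block for the array set 1435581_at was called, and with one for the poly-A batch it was not. Sptlc1, a subunit of serine palmitoyltransferase, which starts sphingolipid synthesis, had -0.43 in 1422690_at (SE 0.10, limma adjusted p = 0.169) and -0.27, -0.26 and 0.06 in its other probe sets. Bace1, whose protein Rtn3 binds, had log2 fold changes between -0.06 and 0.13 in its 4 probe sets.

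**Figure D4:**
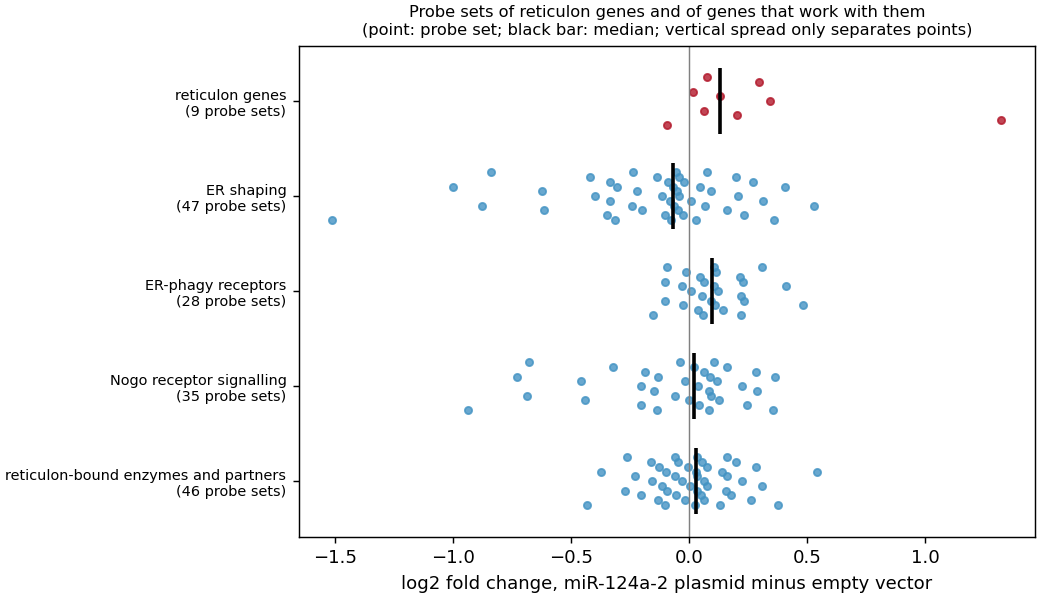
Log2 fold change (miR-124a-2 plasmid minus empty vector, horizontal axis) of each probe set of the reticulon genes (red) and of the 4 lists of related genes (blue), with list medians as black bars. List medians run from -0.07 to 0.13, and the farthest points are Rtn4 1437224_at at 1.32 and Atl3 1435890_at at -1.51.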

How the data were processed

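RNA of 6 CAD cell samples was measured on 1-colour Affymetrix arrays, from 6 ug of total RNA each, per the labels. The deposited values are log2 expression values made by the authors with RMA, per the submitters' processing notes; version, probe definitions and filters are not given in the sources used here. No value was missing and the arrays' quantiles lay within 0.194 of each other, so no further normalization was applied.

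Gene names are those of the 2016 platform annotation (34958 probe sets with 1 gene, 932 with several, 9211 not listed); no reticulon probe set named several genes. The 2 groups were fitted with limma 3.58.1 under R 4.3.3 (lmFit, then two-sided moderated tests by eBayes) without a block, every probe set on its own, with Benjamini-Hochberg adjustment over all 45101 and a threshold of 0.05. The model was tested on simulated data. Promoter windows are from RefSeq (GRCm38.p6). Figures used matplotlib 3.10.9 in Python 3.11.15.

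The members and lists were chosen with earlier results of these data known. All reticulon probe sets are named. From each list come up to 4 genes that passed or, where none did, the 2 with the largest change, each with its probe set of largest change. For each reticulon gene, 3 genes of like pattern follow its brightest probe set. Rtn4r, Bace1, the patterns like Rtn4 1437224_at and the promoter windows shown were added after their values were seen. Alternatives were blocks, other normalizations, a filter on dim probe sets, an intensity trend, 1 probe set per gene and leaving out each array.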

Additional observations from a re-analysis of the deposited data

How the results depend on the processing

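The log2 fold changes of the 9 reticulon probe sets were recomputed 146 times over the settings. Many of these values could not move. Blocks for replicate or poly-A batch, the filter on dim probe sets and 1 probe set per gene return the main value. Median centring shifts all probe sets alike. Of all values, 3 moved by more than 1 SD of replicates. They were Rtn4 1437224_at within the wide arrays (1.45) and within the replicate 1 arrays (1.19), and the dim Rtn4 1439650_at within the replicate 1 arrays (-0.10). Rtn1, Rtn2, Rtn3 1418101_a_at and Rtn4 1452649_at, 1421116_a_at and 1437224_at were above 0 in every setting run; Rtn3 1425539_a_at was below 0 in 2 of 17. Rtn4 1437224_at was called in 8 of 14 settings, and the count of called reticulon probe sets was 0 with the brightest probe set per gene, which leaves this probe set out of the table, and 0 to 1 with single arrays left out.

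Over the whole array 121 probe sets were called, against 339 (0.752%) with the poly-A batch and 509 (1.13%) with the array set as a block. The number was 39 with median centring, 262 with quantile normalization and 215 with an intensity trend, and 0 to 352 with single arrays left out. It was 0 in limma without vector replicates 1, 2 and 3 and plasmid replicate 1 (4247, 2309, 2408 and 3455 at an unadjusted p under 0.05), and the cause was not tested. Related genes called, 0 as reported, were 5 with the array set as a block (Bace2 higher; Reep3, Atl3, Rrbp1 and Rock1 lower), 1 with the poly-A batch (Atl3, lower), and 0 to 3 with single arrays left out. No probe set carries a detection call, so signals near the Trp controls cannot be told from background.

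With the replicate number as a block, 673 probe sets (1.49%) were called. Among them were 1 of the reticulons and 4 related genes (Reep3, Atl3, Rrbp1 and Rock1, all lower). The labels do not say that a number marks a shared batch. Deviations of same-numbered arrays from their group means correlated at 0.581, 0.026 and 0.556 for replicates 1, 2 and 3. Plasmid replicates 1 and 3 each correlated best with the vector array of their own number. Plasmid replicate 2 correlated weakly with vector replicates 1, 2 and 3 (0.090, 0.026 and -0.152). As the labels state no pairs, the numbers were not taken as pairs.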
